A study of Mus musculus with 14 samples.

Results

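The Hnrnp and Srsf genes encode 2 classic families of splicing factors, and their mRNA was followed here in ribosome-bound RNA of hippocampal parvalbumin-expressing interneurons (PV neurons). The members are all protein-coding genes of the count table whose symbol begins with Hnrnp, or with Srsf and a digit. There were 31 of them, 20 Hnrnp and 11 Srsf genes, among 21226 protein-coding genes and 39017 gene identifiers in all. The families were chosen by a measured value, namely that Hnrnpa3 was higher in susceptible than in resilient libraries. Every difference between those 2 groups is therefore given as a description. Hnrnpa3 is described without a test in all comparisons of stress groups. Counts of members across alternative fits include it where stated, and nothing is read from its part. All 31 members passed the filter on low counts, with between 1109 and 54878 counts of a member in a library.

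Adult male mice carrying PV-Cre and a Cre-dependent EGFP-L10a, a tagged protein of the large ribosomal subunit, went through chronic social defeat stress (CSDS), in which a mouse is repeatedly attacked by a larger aggressor. Translating ribosome affinity purification (TRAP) pulls the tagged ribosomes out of a homogenate with the RNA bound to them, and the hippocampi of 1 mouse made 1 TRAP sample. Libraries were made from TRAP samples of non-defeated (4), resilient (4) and susceptible (3) mice, where resilient and susceptible mice are defeated mice that did or did not keep approaching an unfamiliar aggressor in a social interaction test. The input is total RNA taken before the purification from non-defeated mice (3 libraries), although its molecule label reads translating RNA like that of all other samples. The tag marks every cell with a history of PV-Cre expression in the dissected tissue, and a change in the number of such cells and a change in RNA per cell cannot be told apart in these pooled samples.

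Precursor mRNA is bound as it is made by heterogeneous nuclear ribonucleoproteins (hnRNPs), many of which hold splice sites back, and by serine- and arginine-rich (SR) proteins, which bind exonic enhancers and recruit the spliceosome through their RS domains. The balance between them sets which exons are kept, and neurons use many exons that other cells skip. Many genes of both families also limit their own output by splicing in a poison exon that sends the transcript to nonsense-mediated decay. In the mouse annotation, 19 of the 31 members (61.3%) had at least 1 transcript of the nonsense-mediated decay type, namely 10 of 20 Hnrnp and 9 of 11 Srsf genes. Of 15883 protein-coding genes tested, 25.9% had one, and the median number of annotated transcripts was 7 in members and 5 in these genes. The count table gives 1 value per gene, so the transcripts were not separated.

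Library totals were between 64110214 and 94726962 counts. The summed level of 6 PV neuron markers was 3116 to 4330 normalized CPM (counts scaled to library size by edgeR) in TRAP and 519 to 621 in input. Sums of 5 markers of endothelium and blood were 478 to 654 normalized CPM in susceptible, 73.9 to 311 in resilient and 65.8 to 131 in non-defeated libraries, and 410 to 521 in input. Within that list, the globin genes Hba-a1 and Hbb-bs carried the difference between susceptible and resilient libraries, at log2 fold changes of 1.76 and 2.04, while those of Cldn5, Pecam1 and Flt1 were 0.17, -0.28 and 0.06. Resilient libraries 3 and 5 stood apart in the summed level of 5 oligodendrocyte markers, with 251 and 986 normalized CPM, and resilient library 7 in that of 5 thalamic markers, with 815. The sum of 4 markers of other interneurons was 832 and 843 in susceptible libraries 2 and 4 and 760 in resilient library 3. The other TRAP libraries had 382 to 597. Mean levels in susceptible and resilient libraries were 304 and 194 for Sst and 290 and 208 for Npy. They were 114 and 91.8 for Cck and 1.28 and 1.21 for Vip. The part of these differences in the results was not tested.

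Hnrnpa3 and its closest relatives Hnrnpa0, Hnrnpa1 and Hnrnpa2b1 encode the A/B type hnRNPs, which share a pair of RNA recognition motifs and a glycine-rich tail. They are shown here as DNA because Hnrnpa3 led to the choice of the families and the other 3 are its closest paralogs. Of the 31 members, 29 had an entry in the RefSeq promoter table (build GRCm38.p6). The last 100 bases before the annotated start are printed 5′ to 3′ on the strand of the gene, with each CCAAT or GGGCGG in capitals. On the other strand these read ATTGG, for the first motif, or CCGCCC, for the second motif. The windows are chr2:75659159-75659258 on the plus strand for Hnrnpa3, chr13:58128557-58128656 on the minus strand for Hnrnpa0, chr15:103240297-103240396 on the plus strand for Hnrnpa1 and chr6:51469895-51469994 on the minus strand for Hnrnpa2b1.
Hnrnpa3: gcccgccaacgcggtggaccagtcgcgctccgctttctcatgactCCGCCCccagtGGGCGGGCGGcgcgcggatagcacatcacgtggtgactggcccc
Hnrnpa0: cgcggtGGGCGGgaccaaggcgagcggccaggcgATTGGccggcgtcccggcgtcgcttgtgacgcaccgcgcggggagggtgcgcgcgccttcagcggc
Hnrnpa1: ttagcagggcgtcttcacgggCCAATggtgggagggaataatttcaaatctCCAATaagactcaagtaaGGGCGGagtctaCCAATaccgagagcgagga
Hnrnpa2b1: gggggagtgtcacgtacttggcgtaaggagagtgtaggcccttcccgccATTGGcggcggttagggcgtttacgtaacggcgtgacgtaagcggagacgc

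The letters CCAAT are the core of the box bound by the factor NF-Y, and GGGCGG is the core of the GC box bound by Sp1 and its relatives. Within 250 bases before the start, on either strand, CCAAT stood in 15 of 29 members (51.7%), and in 33.8% of 32851 promoters and 35.8% of the 12223 promoters of protein-coding genes tested. GGGCGG stood in 23 of 29 members (79.3%), against 32.7% and 56.2%. All 4 A/B type genes held CCAAT in that window, and Hnrnpa0, Hnrnpa1 and Hnrnpa3 held GGGCGG. The letters of the TATA box, TATAAA, stood in 3 of 29 members (10.3%, against 12.4% of all promoters and 6.96% of those of coding genes tested), namely Hnrnpm, Srsf2 and Srsf3. CCGGAAG, the letters of many ETS factor sites, stood in 6 of 29 (20.7%, against 6.91% and 12.1%) and TGACGTCA, the palindromic cAMP response element, in 0 of 29 (1.55% and 2.55%). These are matches of letters and not measured sites.

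Levels of the members spanned a wide range in PV neurons. Per kilobase of exon (RPKM, from normalized CPM and the merged exon length of the gene), the mean in non-defeated TRAP was highest for Hnrnpk, a KH-domain protein that binds cytidine-rich RNA, at 86.8. Hnrnpab followed with 79.0, Hnrnpc, which packages nascent transcripts and binds uridine tracts, with 68.8 and Srsf2, an activator that also acts in transcript elongation, with 51.1. The lowest were Hnrnpll at 3.85, Hnrnpr at 3.99, Hnrnpul2 at 4.43 and Hnrnpul1 at 4.96 RPKM. For Hnrnpr this rests on a merged exon length of 22199 bases, the longest of the members. Its normalized CPM of 88.6 lay above that of Hnrnpa3, 73.3. Among the A/B type genes, Hnrnpa2b1 had 46.1, Hnrnpa1 41.3, Hnrnpa3 13.58 and Hnrnpa0 13.03 RPKM.

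The comparison of non-defeated TRAP with input asks which members were enriched in ribosome-bound RNA of PV neurons, and did not enter the choice of the families. Both families held members in both directions. At an adjusted p under 0.05, 5 of 20 Hnrnp genes were higher and 4 lower, and 3 of 11 Srsf genes were higher and 5 lower. Of the 31 members, 8 were higher in TRAP (25.8%, against 27.4% of the 21298 genes tested) and 9 lower (29.0%, against 27.6%) at an adjusted p under 0.05. Both shares are near those of all genes. The median log2 fold change was 0.04 over the members and -0.04 over all genes.

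Hnrnpa0, which is encoded by an intronless gene and binds AU-rich elements of cytokine mRNAs, had 38.4, 39.7, 31.6 and 29.9 normalized CPM in non-defeated libraries 1, 6, 9 and 11, and 16.4, 15.7 and 17.2 in input. Every TRAP library lay above every input library, and the log2 fold change was 1.09 (SE 0.13, adjusted p = 8.55e-06). Hnrnpa3, which binds RNA trafficking elements and telomeric repeats, had 74.9, 77.4, 72.4 and 68.4 normalized CPM in the same non-defeated libraries and 48.2, 49.0 and 47.5 in input. Its groups did not overlap either, at a log2 fold change of 0.60 (SE 0.08, adjusted p = 1.65e-05). Hnrnpa1, a repressor of exon inclusion that competes with SR proteins, had 122, 137, 135 and 127 normalized CPM in TRAP and 101, 97.7 and 95.6 in input, and rose by a log2 fold change of 0.41 (SE 0.07, adjusted p = 0.000119). Hnrnpa2b1, a reader of trafficking elements in dendritic mRNAs, had 269 to 343 normalized CPM in TRAP and 279 to 305 in input, and these ranges overlapped (log2 fold change 0.04, SE 0.11, adjusted p = 0.762).

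**Figure D1:**
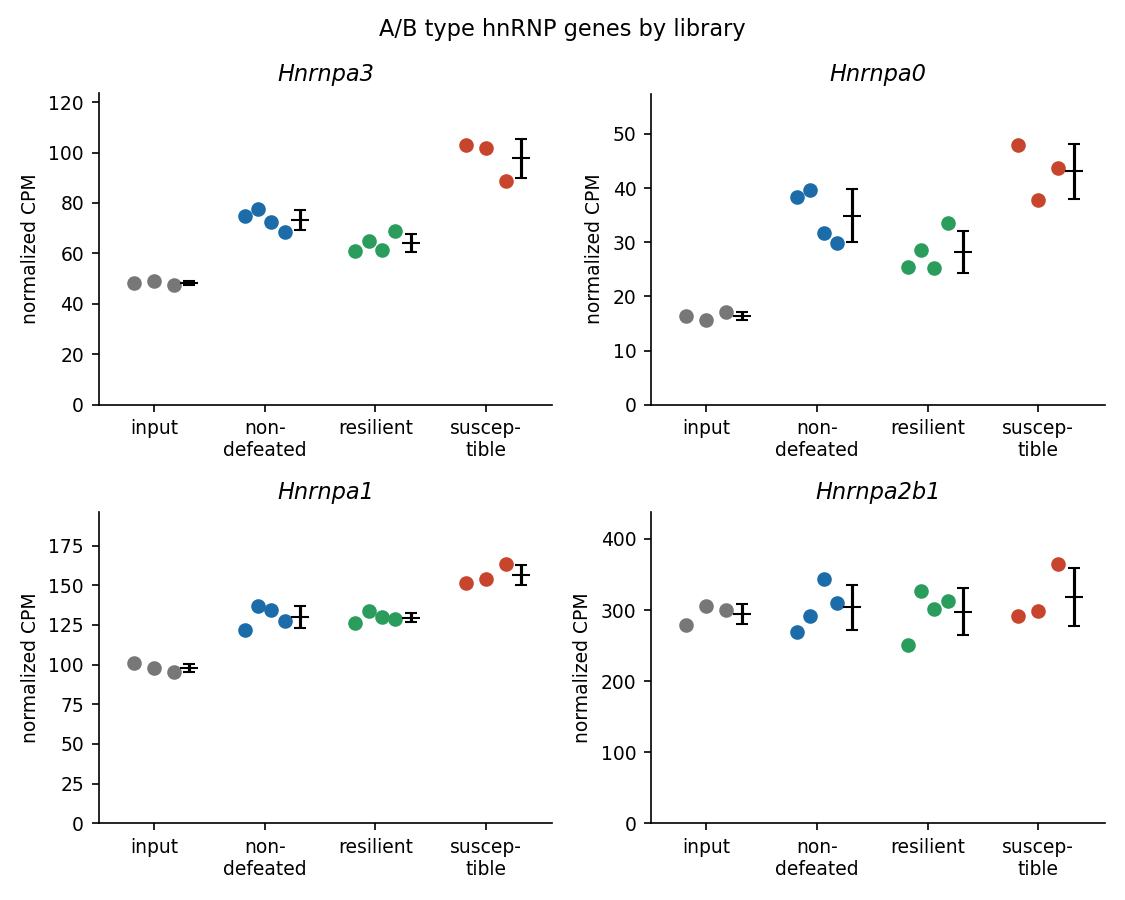
Normalized CPM (y axis) of the 4 A/B type hnRNP genes in each of the 14 libraries (points) by group (x axis), with the mean and SD beside them. For Hnrnpa3 the 3 susceptible libraries lie between 88.7 and 103, above all other libraries, and the 3 input libraries between 47.5 and 49.0, below all others, while Hnrnpa2b1 overlaps in all groups.

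Among the other members enriched in TRAP, Hnrnpul2, a relative of the scaffold protein hnRNP U with a role in the DNA damage response, had 34.0, 36.7, 28.0 and 27.1 normalized CPM in non-defeated libraries and 22.0, 21.5 and 26.5 in input. The closest libraries of its groups nearly met, and the log2 fold change was 0.43 (SE 0.12, adjusted p = 0.00866). Srsf2 rose by 0.28 (SE 0.08, adjusted p = 0.00781). Srsf11, a cofactor for the microexons of neurons, rose by 0.26, Srsf5 by 0.23 and Hnrnpc by 0.23.

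Srsf12, a small relative of Srsf10 that opposes splicing activators, was the most depleted member. It had 21.3, 18.5, 16.7 and 16.7 normalized CPM in non-defeated TRAP and 36.7, 42.9 and 37.1 in input, a log2 fold change of -1.09 (SE 0.13, adjusted p = 7.75e-06). Hnrnpll, a paralog of Hnrnpl known for exon skipping of Ptprc in lymphocytes, had 35.8, 37.9, 53.3 and 53.0 in TRAP and 72.6, 75.7 and 72.8 in input, a log2 fold change of -0.71 (SE 0.14, adjusted p = 0.000507). Its TRAP libraries split into a low and a high pair, both below input. Hnrnpdl, a paralog of the AU-rich element binding protein Hnrnpd, had 61.2 ± 2.31 normalized CPM (SD, n = 4) in TRAP and 81.3 ± 5.85 (SD, n = 3) in input, a log2 fold change of -0.41. Srsf4, an SR protein with a long RS domain, had 51.3 ± 6.47 and 66.6 ± 3.71, a log2 fold change of -0.38 (SE 0.10, adjusted p = 0.00502).

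Hnrnpu, which ties RNA to chromatin, had 179, 192, 255 and 246 normalized CPM in TRAP and 289, 300 and 296 in input. All TRAP libraries lay below input, and the log2 fold change was -0.44 (SE 0.18, adjusted p = 0.0475). This call was lost when non-defeated library 1 or 6, or any 1 of the 3 input libraries, was left out, with adjusted p between 0.0854 and 0.121. The remaining depleted members were Srsf6, Hnrnpul1, Srsf1 and Srsf10, with log2 fold changes between -0.37 and -0.29. The other 14 members did not pass, among them the abundant Hnrnpk (log2 fold change -0.12, adjusted p = 0.432) and Hnrnpab (0.05, adjusted p = 0.518).

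Normalization bears on these counts. Scaling by library totals alone shifted the median of all genes in this comparison by -0.19 on the log2 scale, and 3 members were then called higher and 13 lower. Hnrnpa0, Hnrnpa3 and Hnrnpa1 kept their direction under every alternative run, and so did Srsf12 and Hnrnpll.

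**Figure D2:**
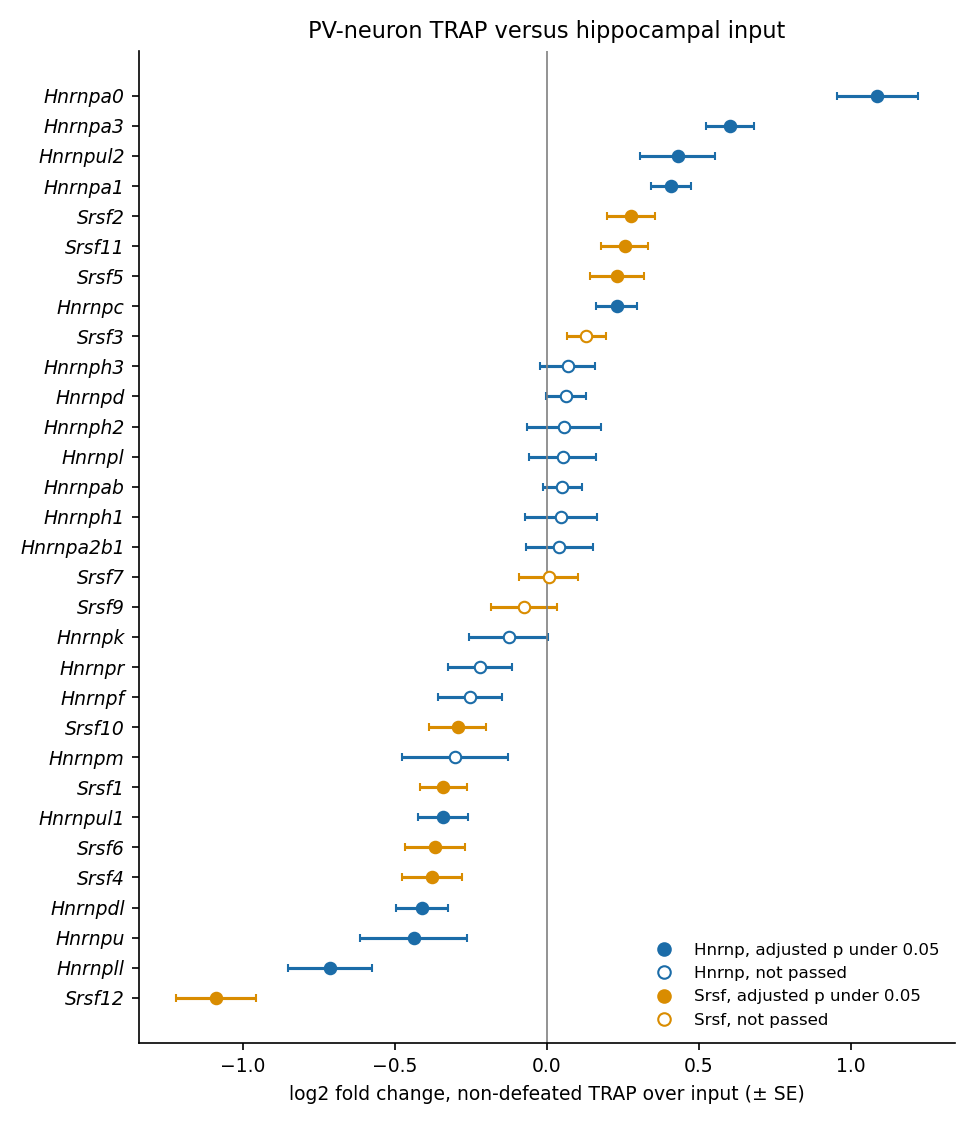
Log2 fold change of non-defeated TRAP over input (x axis) for the 31 members (y axis, sorted), with standard errors as bars and filled points for an adjusted p under 0.05. Hnrnpa0 stands at 1.09 and Hnrnpa3 at 0.60 at the top, Hnrnpll at -0.71 and Srsf12 at -1.09 at the bottom, and both families are found on either side of 0.

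Genes that work with the members were taken from 5 lists, whose counts are to be set beside the 27.4% higher and 27.6% lower among all genes. Of 41 core spliceosome genes, 20 were higher in TRAP and 2 lower, with a median log2 fold change of 0.28. Ddx23, a helicase of the U5 particle, rose by 1.25 and Srrm2, a scaffold of nuclear speckles, by 1.16, while Sf3a1 fell by 0.50 and Prpf3 by 0.64. Of 17 other hnRNP class proteins, 5 rose, led by the cold-inducible Cirbp (1.11) and Pcbp2 (0.80), and 5 fell, led by Ptbp3 (-1.89) and Pcbp4 (-0.63).

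Of 28 neuronal and tissue-specific regulators, 8 rose and 13 fell. Srrm4, which drives neuronal microexons, rose by 1.60 and Elavl4 by 1.21, and Qk, the glial quaking protein, fell by 1.57. Esrp1, an epithelial regulator, fell by 2.38 from a mean of only 0.257 normalized CPM in input. Of 14 kinases, methylases and importers of SR and hnRNP proteins, 4 rose, among them Prpf4b (0.85) and the SR protein kinase Srpk2 (0.72), and 2 fell, Tnpo3 (-0.47) and Carm1 (-0.45). Of 16 genes of nonsense-mediated decay and the exon junction complex, 6 rose, led by Upf3b (1.15) and Magoh (0.67), and 3 fell, led by Upf1 and Casc3 (both -0.54). Snrpn and Prmt1, which are also on these lists, were not analysed here.

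Between resilient and non-defeated mice, the question is whether the members change in mice that withstand defeat. Of the 31 members, 0 passed an adjusted p under 0.05 (0.0% of all genes, with 0 called). Leaving aside Hnrnpa3, at an unadjusted p under 0.05 in edgeR 0 of the 30 other members were higher (2.22% of all genes) and 1 was lower (3.33%, against 2.16%), Hnrnpa0. Log2 fold changes of all members lay between -0.31 and 0.21, with a median of 0.01.

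Hnrnpa0 had 25.4, 28.6, 25.3 and 33.5 normalized CPM in resilient libraries 3, 5, 7 and 8, against 29.9 to 39.7 in non-defeated libraries. The ranges overlapped through resilient library 8, and the log2 fold change was -0.31 (SE 0.12, unadjusted p = 0.0214 in edgeR's quasi-likelihood test across all genes). Hnrnpa3 had 61.0, 65.0, 61.5 and 68.7 in the resilient libraries, of which only library 8 reached the lowest non-defeated library, a log2 fold change of -0.19. The next by p-value were Srsf10, a repressor when dephosphorylated, at -0.10 (SE 0.09), and upward Hnrnpll at 0.21 (SE 0.13), Srsf6 at 0.10 (SE 0.09) and Srsf5 at 0.07 (SE 0.08). None of these 4 passed the unadjusted threshold. Counted with Hnrnpa3, 2 members had an unadjusted p under 0.05. That number was 1 without non-defeated library 1 or resilient library 3 or 7, and 0 without non-defeated library 6.

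Between susceptible and non-defeated mice, which share the control libraries of the comparison above, 0 of 31 members passed an adjusted p under 0.05 (0.0376% of all genes, 8 genes). Leaving aside Hnrnpa3, at an unadjusted p under 0.05, 5 of the 30 other members were higher (16.7%, against 6.61% of all genes) and 1 was lower (3.33%, against 6.7%). The groups did not overlap for 3 of the 30 that were higher (4.21% of all genes) and for 0 that were lower (4.4%).

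Hnrnpul2 had 48.4, 40.0 and 42.7 normalized CPM in susceptible libraries 2, 4 and 10, against 27.1 to 36.7 in non-defeated ones. No susceptible library reached down to a non-defeated one, and the log2 fold change was 0.47 (SE 0.12, unadjusted p = 0.00154, adjusted p = 0.162 in edgeR). Hnrnpa1 had 152, 154 and 164 against 122 to 137, also without overlap, a log2 fold change of 0.27 (SE 0.07, adjusted p = 0.152). Hnrnpa0 had 47.9, 37.7 and 43.7 against 29.9 to 39.7, with susceptible library 4 inside the range of the controls (log2 fold change 0.30, SE 0.13, adjusted p = 0.338).

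Hnrnpa3 had 103, 102 and 88.7 normalized CPM in susceptible libraries 2, 4 and 10 against 68.4 to 77.4, a log2 fold change of 0.42 given without a test. Of the remaining 2 that were higher at the unadjusted threshold, Srsf11 did not overlap between groups (log2 fold change 0.21, adjusted p = 0.281) and Hnrnpdl did (0.19, adjusted p = 0.361). Hnrnpll was the member that was lower, with 31.96, 36.2 and 40.5 in susceptible and 35.8, 37.9, 53.0 and 53.3 in non-defeated libraries (log2 fold change -0.31, SE 0.14, adjusted p = 0.361). These groups overlapped. Srsf4 (-0.20, SE 0.10) and Hnrnpl (-0.19, SE 0.11), which binds CA repeats, followed and did not pass. Counted with Hnrnpa3, 7 members had an unadjusted p under 0.05, 4 without non-defeated library 11 and 3 without susceptible library 2. Hnrnpa2b1 had 292, 298 and 365 in susceptible libraries, of which 1 lay above the range of the controls, with a log2 fold change of 0.07 (SE 0.11).

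**Figure D3:**
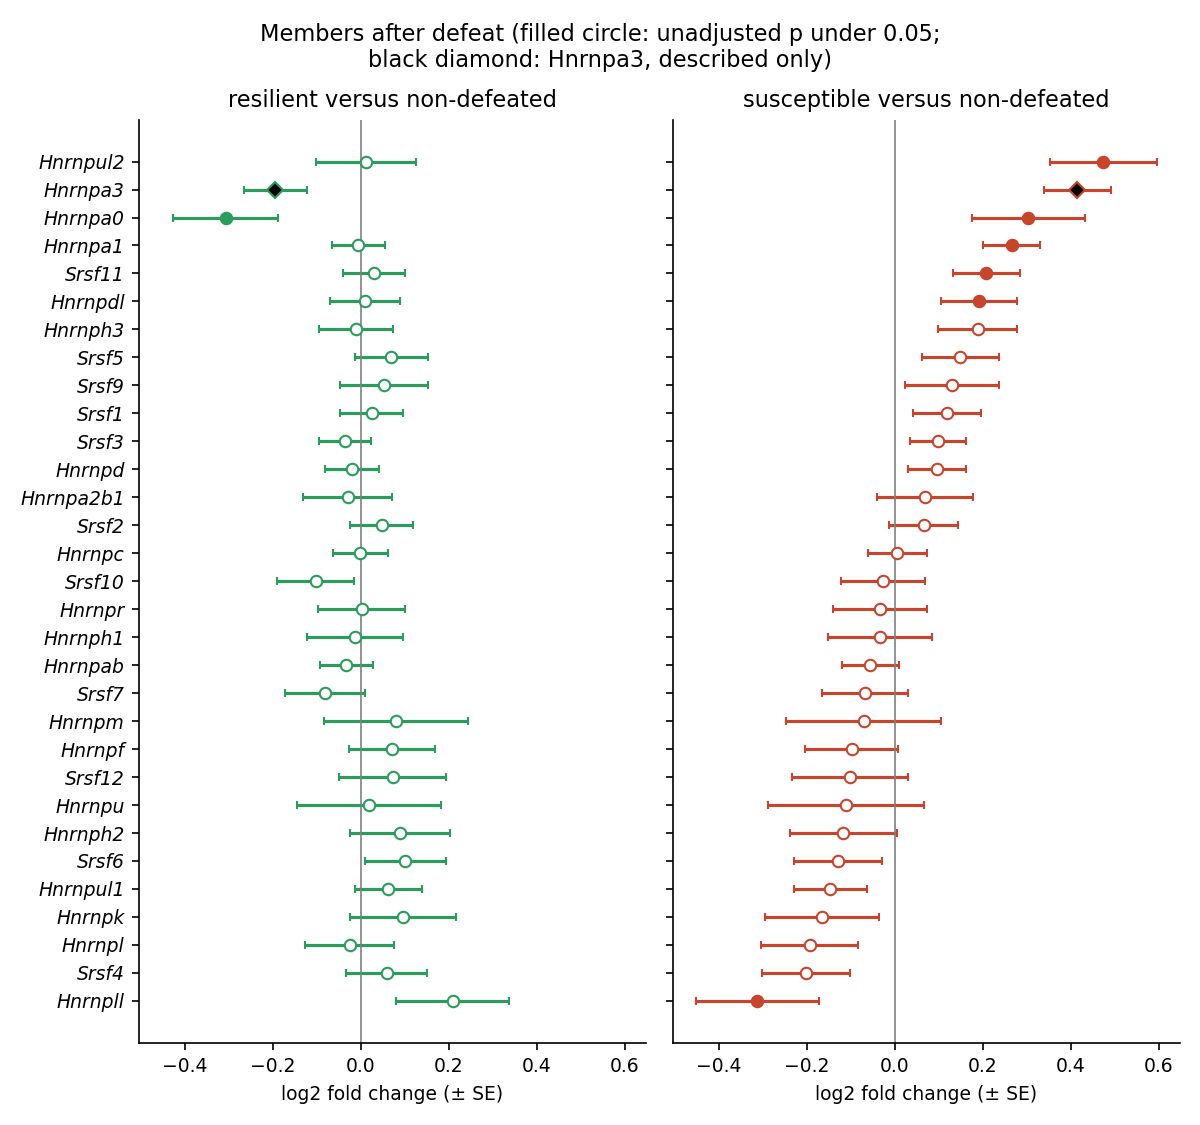
Log2 fold change (x axis, bars are standard errors) of the 31 members (y axis) in resilient (left) and in susceptible (right) against the same 4 non-defeated libraries. Filled circles have an unadjusted p under 0.05, and the black diamond is Hnrnpa3, which is shown as a description only. Hnrnpa0 and Hnrnpa3 stand at -0.31 and -0.19 on the left and at 0.30 and 0.42 on the right, and Hnrnpul2 leads on the right with 0.47.

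Other SR genes lay close to the non-defeated level in resilient and in susceptible mice. Srsf3, the smallest SR protein, had 220 ± 4.90 normalized CPM (mean ± SD) in non-defeated, 215 ± 7.86 in resilient and 236 ± 14.3 in susceptible libraries, and 201 ± 4.79 in input. Its log2 fold change was 0.10 (SE 0.06) in susceptible and -0.04 (SE 0.06) in resilient against non-defeated mice. Its resilient libraries, at 205 to 222, and its susceptible libraries, at 223 to 251, did not overlap. Srsf1, the founding member of the family and an activator of constitutive splicing, had 57.9 ± 3.47, 59.0 ± 2.46 and 62.9 ± 4.71 in the same order, all below the input level of 73.3 ± 3.12. Srsf7, which adds a zinc knuckle to the RNA recognition motif, had 111 ± 8.67, 105 ± 8.90 and 106 ± 12.6, and 111 ± 5.97 in input, so its means were within 1 SD of each other. Srsf5 had 143 ± 10.01, 150 ± 10.9 and 158 ± 15.9, and Srsf9 had 68.4 ± 7.89, 70.9 ± 9.29 and 74.8 ± 4.08. Srsf2 had 151 ± 4.52, 156 ± 13.4 and 158 ± 10.7. None of these 6 passed the unadjusted threshold in either comparison with non-defeated mice.

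Other Hnrnp genes ranged from steady levels to a wide spread inside the groups. Hnrnpab, which binds CArG box DNA and trafficking elements of RNA, had 220 ± 7.56 normalized CPM in non-defeated, 215 ± 13.4 in resilient and 211 ± 0.304 in susceptible libraries, with 212 ± 1.13 in input. Hnrnpc had 297 ± 15.1, 297 ± 10.6 and 299 ± 18.6, against 253 ± 2.93 in input, and its means in the 3 stress groups were within 1 SD of each other. Hnrnpd, which promotes decay of mRNAs with AU-rich elements, had 91.7 ± 4.74, 90.4 ± 2.59 and 98.01 ± 1.12. Its resilient libraries, at 87.5 to 93.0, and its susceptible libraries, at 96.7 to 98.9, did not overlap. Hnrnpk had the widest absolute spread inside groups, with 448, 527, 661 and 610 in non-defeated, 501, 634, 665 and 601 in resilient and 434, 503 and 566 in susceptible libraries. Its log2 fold change in susceptible against non-defeated mice was -0.16 with an SE of 0.13, and the ranges overlapped. Hnrnpr, which carries mRNA into motor axons, had 88.6 ± 7.09, 88.7 ± 9.58 and 86.5 ± 11.6, all below the input level of 103 ± 3.99. That difference from input was without overlap in non-defeated TRAP but did not pass (log2 fold change -0.22, SE 0.11, adjusted p = 0.0939).

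Susceptible against resilient mice is the contrast in which Hnrnpa3 was noticed, so its values are a description from which nothing is read. Hnrnpa3 had 61.0 to 68.7 normalized CPM in resilient and 88.7 to 103 in susceptible libraries, a log2 fold change of 0.61 (SE 0.08) or 1.53-fold. Hnrnpa0 stood at 25.3 to 33.5 and 37.7 to 47.9 with a log2 fold change of 0.61 (SE 0.13), and Hnrnpa1 at 126 to 134 and 152 to 164 with 0.27 (SE 0.07). As a description, Hnrnpa0 and Hnrnpa1, 2 of the 30 members other than Hnrnpa3, were higher at an adjusted p under 0.05 (6.67%, against 1.02% of all genes). At that threshold 0 members were lower (0.873%). Just outside the threshold were Hnrnpul2, with a log2 fold change of 0.46, and Hnrnpll, with -0.52 and resilient libraries at 47.5 to 55.6 against 31.96 to 40.5. Hnrnpll was inside it in 4 of 17 alternatives, namely the likelihood ratio test, DESeq2, the sample number as a covariate and without susceptible library 10.

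At an unadjusted p under 0.05, 5 of the 30 members other than Hnrnpa3 were higher (16.7%, against 10.8% of all genes). At that threshold 4 of the 30 were lower (13.3%, against 10.1%). The groups did not overlap for 6 of the 30 that were higher (7.71% of all genes). They did not overlap either for 3 that were lower (7.44%), namely Hnrnpll, Srsf4 (-0.26) and Hnrnpul1 (-0.21). Hnrnpa2b1 overlapped, at 250 to 326 in resilient and 292 to 365 in susceptible libraries. The median log2 fold change of all members was 0.01, and of all genes 0.00.

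Without Hnrnpa3, 2 members were inside the threshold. Counted with Hnrnpa3, which chose the families and so adds no support, the number was 3 and changed with the fit. It was 0 in a fit of the 11 TRAP libraries only or of the resilient and susceptible libraries only, and 5 with edgeR's likelihood ratio test, with DESeq2 and with the sample number as a covariate. Of 17 alternatives, 9 kept Hnrnpa0 inside the threshold and 6 kept Hnrnpa1. The number was 1 when any of resilient libraries 3, 5, 7 and 8 or susceptible libraries 2 and 4 was left out. Also counted with Hnrnpa3, 10 members in either direction passed the unadjusted threshold, and 6 without resilient library 5 or 7 or susceptible library 2. The globin markers given above also separate susceptible from resilient libraries. The summed markers of other interneurons were high in susceptible libraries 2 and 4 and in resilient library 3. The part of either was not tested.

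From the other lists, 6 genes were called in the same contrast at an adjusted p under 0.05, and all were higher in susceptible mice. Of all genes, 1.02% were higher and 0.873% lower. Among the 6 were Pcbp2 (log2 fold change 0.51, of 17 other hnRNP class proteins), Celf2 (0.34, of 28 regulators) and Magohb (0.52, of 16 decay and exon junction genes). Of 41 core spliceosome genes they included the U2 and Sm proteins Snrpb2 (0.49), Snrpe (0.44, adjusted p = 0.0495 in edgeR) and Snrpd1 (0.39). At an unadjusted p under 0.05, these lists had 2, 4, 5 and 10 genes higher and 2, 0, 3 and 4 lower, in this order. Of 14 kinases, methylases and importers, 2 were higher and 4 lower (10.8% and 10.1% of all genes). The calls of list genes were not rerun under the alternatives. In both comparisons with non-defeated mice, 0 genes of these lists were called.

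As a description, the log2 fold changes of the members in TRAP over input were set beside those in susceptible over resilient mice. These comparisons have no library in common, but the second is the one in which Hnrnpa3 was noticed. Across the 31 members, the log2 fold changes had a Pearson r of 0.76 and a Spearman rho of 0.68, and 23 members (74.2%) had the same sign in both, against 57.3% of all genes and 61.8% of protein-coding genes at levels in the range of the members. Without Hnrnpa3, r was 0.74 (n = 30), and without Hnrnpa0, Hnrnpa1 and Hnrnpa3 it was 0.60 (n = 28). The same value was 0.77 over the 41 core spliceosome genes, 0.64 over the 16 genes of decay and the exon junction, and 0.15 to 0.24 over the other 3 lists. It was 0.08 over all 21298 genes and 0.22 over 6446 protein-coding genes with mean levels in the range of the members. Genes share libraries, depth and base composition and are not independent, the pattern was noticed after the values were seen, and it is not particular to these families.

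**Figure D4:**
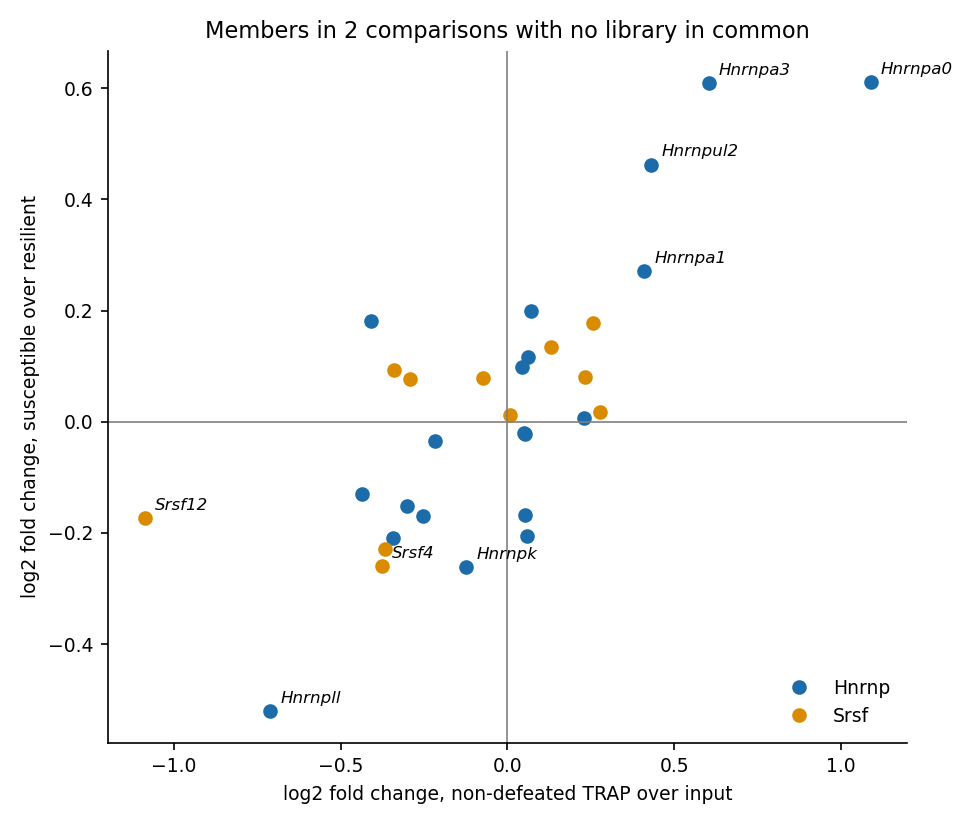
Log2 fold change of non-defeated TRAP over input (x axis) against that of susceptible over resilient (y axis) for the 31 members, with Hnrnp and Srsf genes in different colors. The points run from Hnrnpll at the lower left (-0.71 and -0.52) to Hnrnpa3 (0.60 and 0.61) and Hnrnpa0 (1.09 and 0.61) at the upper right.

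Several members differed, inside the stress groups, between libraries with low and high numbers in their names. Hnrnpf and Hnrnph1, quasi-RRM proteins that bind guanosine tracts, and Hnrnpl were higher in each of the 5 TRAP libraries numbered 7 to 11 than in any of the 6 numbered 1 to 6. Hnrnpl had 69.3 to 89.8 normalized CPM in the low numbers and 92.5 to 98.8 in the high ones. Hnrnph1 had 84.1 to 107 and 107 to 116. These 3 members are named because of their values, and with the counts of its copies added Hnrnpf no longer belongs to them, since its lowest value in the high numbers was 246 and its highest in the low ones 251. Of all genes tested, 1.29% had the same order and 1.70% the opposite one, which 0 members had.

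The mean log2 difference between high and low numbers was positive for 20 of 31 members. Its median over all genes was 0.0065, and the share of all genes with a positive value was not computed. The difference was largest for Hnrnpm, which binds GU-rich RNA, at 0.43 and for Hnrnpu at 0.40. For Hnrnpa3 it was -0.14. What the number stands for is not given in the sources used here, and susceptible libraries have 1 high number and resilient ones 2. Within the low numbers, the log2 difference of Hnrnpa3 between susceptible and resilient libraries was 0.70, and within the high numbers 0.45. Hnrnpa3 was chosen by this difference, so both values are a description, and the part of the number was not tested. For Hnrnpul2 the difference between susceptible and non-defeated libraries was 0.32 and 0.63, and for Hnrnpa1 0.24 and 0.32. For Hnrnpll it was -0.11 and -0.39.

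**Figure D5:**
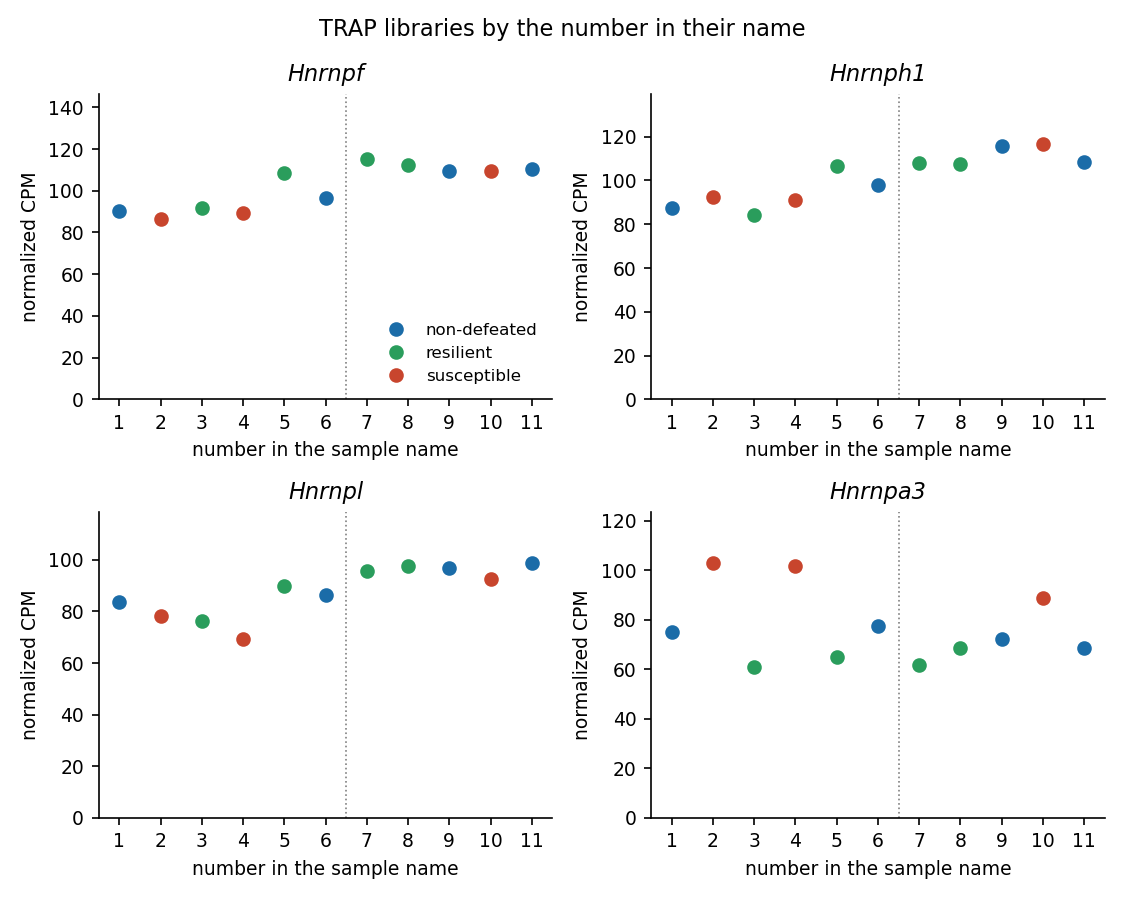
Normalized CPM (y axis) in the 11 TRAP libraries against the number in the sample name (x axis), colored by group, for Hnrnpf, Hnrnph1, Hnrnpl and Hnrnpa3. With its own counts only, Hnrnpf joins Hnrnph1 and Hnrnpl in that the libraries to the right of the dotted line lie above those to its left. The panel of Hnrnpa3 is a description, since its values chose the families. Its 3 susceptible libraries lie at 88.7 to 103, above the rest.

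Near-identical copies limit what some counts can say. Of the 31 members, 12 had at least 1 annotated gene with 95% identity over 150 bases, mostly processed pseudogenes, and how reads with several matches were counted is not given in the sources used here. Hnrnpa3 had 36 such copies, 35 of them pseudogenes, whose counts came to 57.7% of its own. Summed over the 25 pseudogene copies that are in the count table, the non-defeated libraries had 41.6 ± 5.02 normalized CPM (mean ± SD, 4 libraries), the resilient libraries 36.0 ± 2.36 (4 libraries) and the susceptible libraries 56.0 ± 3.92 (3 libraries). The 3 input libraries had 26.4 ± 0.706, and the order of the groups is that of Hnrnpa3 itself. With these counts added, the log2 fold change of Hnrnpa3 was 0.62 in TRAP against input (adjusted p = 1.93e-05) and 0.62 in susceptible against resilient mice.

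For Hnrnpa1 the copies held 61.8% of its own counts and did not follow it, with sums of 79.7 ± 8.002 in non-defeated, 87.6 ± 2.55 in resilient, 79.2 ± 9.87 in susceptible and 67.1 ± 3.38 in input libraries. With them added, its log2 fold change was 0.35 in TRAP against input (adjusted p = 0.00101), 0.17 in susceptible against non-defeated (adjusted p = 0.347) and 0.12 in susceptible against resilient mice, where it was no longer called. Copies held 132% of the own counts of Hnrnpf and 39.8% of those of Srsf3, and at most 13.4% for the rest. Hnrnpa0 and Hnrnpul2 had none, but genes that overlap a member were not counted as copies.

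Exons of 11 members are shared with a gene on the opposite strand, such as Hnrnpu with Cox20, Srsf2 with Mettl23 and Mfsd11, and Srsf4 with Gm12992. The library kit does not mark strand, so reads of such a pair cannot be told apart there. Exons of 3 members are shared with a gene on the same strand. These are Hnrnpa3 with the miRNA Gm24574, Hnrnpm with March2, and Hnrnpul2 with AC129217.1, which is not in the count table.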

How the data were processed

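Sequencing reads of 14 libraries were trimmed with fastp, aligned to mm10 with STAR (2.5.3a in the submitters' processing notes, another version in the paper) and counted per gene, for which the notes name HTSeq, and the authors deposited raw counts without normalization. The annotation, strand setting and handling of multiple matches are not given in the sources used here. Groups came from the treatment labels. The mice of the stress groups were separate animals, and the labels do not say which mice gave the input libraries. Of 39017 identifiers, 37607 were named from the GENCODE annotation of GRCm38, which also gave exon lengths and transcript types.

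The analysis used edgeR 4.0.16 in R 4.3.3. Low counts were removed with filterByExpr, which left 21298 genes, and after TMM normalization these were tested by quasi-likelihood in 1 model of all 14 libraries, with 2-sided p-values adjusted by Benjamini-Hochberg over all genes tested. Members were read out of that table. Normalized CPM are counts divided by the TMM-scaled library size. Copies of members were found with BLAST 2.17.0. Only the fit for susceptible against resilient libraries was tried on simulated counts, with changes larger than those of the members between stress groups. Smaller changes and the other comparisons were not simulated. Counting error is part of the spread that the tests use.

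The members, the gene lists and the tests were chosen with earlier results of these data known. Named are Hnrnpa3, its paralogs Hnrnpa0, Hnrnpa1 and Hnrnpa2b1, members called between stress groups, the 5 members per direction with the largest change among those called in TRAP against input, and the 3 members per direction with the smallest p-value in each comparison of stress groups. Of the other lists, genes called between stress groups are named, and the 2 per direction with the largest change among those called in TRAP against input. Members outside this rule are named where a count is spelled out or where they were noticed in the data. The lists covered other hnRNP class proteins, neuronal and tissue-specific splicing regulators, the core spliceosome, kinases, methylases and importers of SR and hnRNP proteins, and nonsense-mediated decay with the exon junction.

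Alternatives were RLE size factors, library totals, no filter, at least 10 counts in every library, DESeq2 1.42.0 on the groups compared, edgeR's test by likelihood ratio, fits of the 11 TRAP libraries or of the groups compared only, the number in the sample name as a covariate, values within low and high numbers, and leaving out each library. Adding the counts of pseudogene copies was chosen after seeing the data.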

Additional observations from a re-analysis of the deposited data

Results flagged for a closer look

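In 4 of 62 groups of 4 libraries that were checked (the non-defeated and the resilient libraries of each member), 1 library lay far from the other 3 by Dixon's criterion, and chance alone flags about 1 in 20 groups. All 4 concern resilient library 3, which was the lowest of its group. It had 57.0 normalized CPM of Hnrnpdl, 84.1 of Hnrnph1, 192 of Hnrnph2 and 63.5 of Hnrnpm, where the other resilient libraries had 62.8 to 63.7, 107 to 108, 232 to 234 and 86.3 to 90.0. The same library had the lowest summed level of oligodendrocyte markers in its group (251 normalized CPM) and 1 of the 2 low sample numbers, and the part of neither was tested.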

How the results depend on the processing

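No paired analysis was run. Each library has its own number, and the labels do not say whether input and non-defeated TRAP libraries came from the same mice. All groups were fitted as independent. Outside susceptible against resilient mice, 377 alternative values of 23 results on single members were computed by refitting, and none changed direction. Values within low and high sample numbers are not among the 377. Of these results, only that of Srsf6 in resilient against non-defeated mice changed sign there. Its log2 difference was 0.27 within the low and -0.06 within the high numbers. Among the refits, calls were lost in 7, all in TRAP against input. Of the 7, 5 are leave-outs for Hnrnpu, and with library totals Srsf2 and Hnrnpul2 were no longer called. Values of Hnrnpa3 against non-defeated mice are among the 377 for their direction. Its calls between stress groups are left out, since its values chose the families.

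In susceptible against resilient mice, given as a description, adjusted p was 0.05 or more in 8 of 17 alternatives for Hnrnpa0 (up to 0.15) and in 11 for Hnrnpa1 (up to 0.379). It was under 0.05 in 4 for Hnrnpll. Hnrnpa1 moved to 0.12 with pseudogene copies added.

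Members called higher in TRAP numbered 8, and 3 with library totals only. Leaving out 1 library gave 6 to 8 higher and 7 to 10 lower. The counts between stress groups include Hnrnpa3, whose values chose the families. Without it, the main fit gave 1, 6, 2 and 9 in the order of the counts below. The 2 members at an unadjusted p in resilient against non-defeated mice became 0 to 3. The 7 in susceptible against non-defeated mice became 3 to 9 with a library left out, 4 with the 11 TRAP libraries, 3 with the 2 groups only and 4 with DESeq2. In susceptible against resilient mice, the 3 called became 1 to 3 with a library left out, 5 with the likelihood ratio test, 5 with DESeq2, 5 with sample number as a covariate, and 0 with the 11 TRAP libraries or the 2 groups only, and the 10 at an unadjusted p became 6 to 13. As a description of the difference by which it was chosen, the log2 fold change of Hnrnpa3 was 0.57 to 0.67 with a library left out. It was 0.45 within the libraries numbered 7 to 11, of which 1 is susceptible. Every member had at least 1109 counts in every library.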
